A study of Mus musculus with 12 samples.

Results

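High fructose medium was compared with high glucose medium in microglial cells that had received lipopolysaccharide (LPS), with 3 RNA sequencing libraries on each side and all genes of the count table. The comparison used 6 of the 12 libraries of the series, chosen by the labels that name their medium, and the other 6, from control medium with and without LPS, gave the reference levels. All cells were of the N9 line, an immortalised line of mouse microglia, the macrophages of the brain. Control medium held 3 mM glucose and 5 mM fructose in a base without glucose and with dialyzed serum. High glucose medium was described as that medium with 15 mM glucose, and high fructose medium as that medium with 15 mM fructose. The labels leave unsaid whether 15 mM was the final or the added concentration. The cells spent 18 h in their medium and those of 3 of the 4 groups then received 1 µg/ml LPS for another 6 h, while 1 control group received none. No group had raised sugar without LPS, and none had a raised concentration of a sugar that cells do not use. The labels number 3 replicates a group without saying that they were separate cultures, so the p-values rest on the scatter among these libraries alone, and that scatter may be technical.

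Glucose and fructose are isomers, an aldose and a ketose with the same atoms. Glucose enters through transporters such as Slc2a1 and is trapped by hexokinase, while fructose is taken up mainly through Slc2a5 and can be phosphorylated by ketohexokinase, which bypasses a regulated step of glycolysis. LPS acts on Toll-like receptor 4. The MyD88 route from this receptor leads to NF-kB and cytokine genes, and the TRIF route leads through Tbk1 and Irf3 to interferon-beta, which signals through its receptor, the kinases Jak1 and Tyk2 and factors such as Stat2 and Irf9 to switch on interferon-stimulated genes.

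The 6 libraries held 15453776 to 16743251 counts assigned to genes. Mitochondrially encoded genes took 0.693% ± 0.115 of the counts in fructose and 0.635% ± 0.102 in glucose (SD, n = 3 each; exact two-sided permutation p = 0.5, where the smallest possible is 0.1). On the principal components of these 6 libraries, library 1 of glucose and library 2 of fructose lay farthest from the others of their group, and counts of calls are also given without them. The libraries of the 2 media overlapped on components 1, 2 and 3, which held 27.9%, 21.6% and 18.2% of the variance. Macrophage markers were abundant in all 12 libraries, with Csf1r between 6088 and 8027 counts and Cd68 between 9453 and 11691. The markers of brain-resident microglia were weak or missing: P2ry12 had 1 to 6 counts, Aif1 2 to 9, Sall1 0 or 1, and Siglech 0. The lymphocyte markers had 0 to 3 counts. Of 10 neuron markers, 9 had 0 to 22 counts and Map2 had 214 to 432. Among 9 astrocyte markers, Aldoc had 1387 to 2053 counts and Aldh1l1 296 to 534, and each of the rest had 21 or fewer. Among 8 endothelial markers, Flt1 had 816 to 1264 counts and Vwf 518 to 844, and each of the rest had 26 or fewer. Of 10 oligodendrocyte markers, 7 had 0 to 12 counts, among them Sox10 at 0, while Mbp had 443 to 672, Cnp 170 to 256 and Cspg4 94 to 153. Fibroblast markers were uneven among libraries, with summed levels of 13.1, 20.6 and 0.920 CPM (counts divided by a TMM-adjusted library total) in fructose libraries 1 to 3 and 1.04, 1.35 and 8.34 in glucose libraries 1 to 3. Epithelial markers summed to 17.2 CPM in glucose library 2 and to 4.13 or less in the other 5 libraries.

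Under LPS, cells in fructose had lower levels of the interferon-stimulated genes than cells in glucose, and higher levels of a set of tubulin, actin-regulator and annexin genes. Of 12766 genes tested, 475 were called at an adjusted p below 0.05, which is 3.72% of those tested. Of these, 235 were higher in fructose (1.84%) and 240 were lower (1.88%). For every one of them the 3 libraries of one medium lay wholly above the 3 of the other. That also held for 2289 of all 12766 genes tested. The calls and the lack of overlap come from the same libraries, so the latter is not separate support. Without adjustment, 1995 genes had a p below 0.05. The falls were the larger: 65 genes were lower by at least 1.5-fold (0.509% of those tested) against 16 that were higher by as much (0.125%), and 22 against 6 passed 2-fold. The median log2 difference, fructose minus glucose, was -0.39 among the called genes that were lower and 0.30 among those that were higher, against 0.00 over all genes tested.

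**Figure D1:**
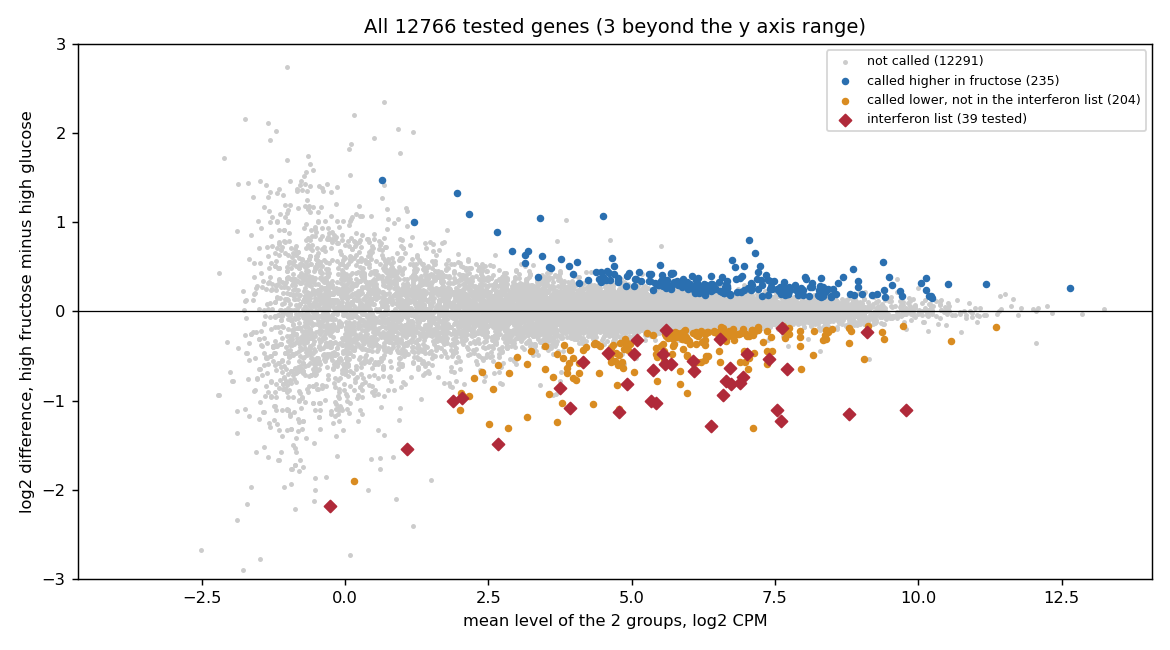
Log2 difference between high fructose and high glucose under LPS (y axis) against the mean level of both groups in log2 CPM (x axis) for 12766 tested genes, with called genes in colour and the interferon list as diamonds. All 39 diamonds lie below 0, and 3 genes lie outside the range drawn, among them Gapdh at 4.23.

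The interferon-stimulated genes are given first, with stretches of promoter that show the element they are known for. The interferon-stimulated response element, bound by Stat and Irf factors, was searched on both strands as GAAA, any 2 bases (NN) and GAAA in a row, in windows from 250 bases before to 50 after each RefSeq start site (GRCm38.p6). It occurred in 3.44% of all 32851 windows and in 3.20% of the windows of tested genes. Among windows of the interferon list it occurred in 19 of 37, which belong to 30 of the listed genes. It was in 53 of the 248 windows of genes called lower (21.4%) and in 2 of the 292 windows of genes called higher (0.685%). A match is a description of letters and says nothing of binding in these cells. The 250 bases before the start site are printed for 4 genes on which the results below turn, read 5′ to 3′ on the strand of the gene, with matches in capitals. Rsad2 lies at chr12:26456453-26456702 on the minus strand, Ifit3 at chr19:34583279-34583528 on the plus strand, Isg15 at chr4:156200819-156201068 on the minus strand, and Cxcl10 at chr5:92348890-92349139 on the minus strand.
Rsad2: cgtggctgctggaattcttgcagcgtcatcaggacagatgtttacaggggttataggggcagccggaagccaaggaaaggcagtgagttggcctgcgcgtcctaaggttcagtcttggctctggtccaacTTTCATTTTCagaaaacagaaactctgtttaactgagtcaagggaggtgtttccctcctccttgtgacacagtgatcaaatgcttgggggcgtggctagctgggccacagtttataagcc
Ifit3: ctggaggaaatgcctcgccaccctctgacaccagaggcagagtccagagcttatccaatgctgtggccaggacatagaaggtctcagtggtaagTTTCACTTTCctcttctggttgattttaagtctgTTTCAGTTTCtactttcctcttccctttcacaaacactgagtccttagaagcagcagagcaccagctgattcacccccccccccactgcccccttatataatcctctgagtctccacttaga
Isg15: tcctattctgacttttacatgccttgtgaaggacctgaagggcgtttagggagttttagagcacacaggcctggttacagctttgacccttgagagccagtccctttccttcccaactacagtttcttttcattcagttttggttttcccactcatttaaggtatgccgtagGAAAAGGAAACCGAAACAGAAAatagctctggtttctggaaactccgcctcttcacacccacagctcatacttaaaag
Cxcl10: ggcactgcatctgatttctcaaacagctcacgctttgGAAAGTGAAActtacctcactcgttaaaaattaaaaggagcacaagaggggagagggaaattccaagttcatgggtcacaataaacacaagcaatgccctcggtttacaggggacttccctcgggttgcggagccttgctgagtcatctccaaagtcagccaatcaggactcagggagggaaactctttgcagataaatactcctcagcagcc
Rsad2 has 1 match, which begins 120 bases before the start site, and Ifit3 has 2, at 156 and 122 bases before it. Isg15 has 3 matches that overlap each other in 1 run, the farthest beginning at 78 bases, and Cxcl10 has 1 at 213 bases. Ifit1 and Ifit3b have 2 matches each and Stat2 has 1. The windows of Cmpk2, Ifit2, Irf7, Oasl2, Ifi44 and Fcgr1 hold no match, and no window was available for Mx1, Usp18 and Nos2.

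Of 39 tested interferon-stimulated genes, 36 were called lower in fructose and 0 higher, where 1.88% of all tested genes were called lower. The median log2 difference of the list was -0.78 and the range was -2.18 to -0.19, and for 39 of 39 genes the fructose libraries lay below the glucose libraries, which held for 8.64% of all tested genes. Without glucose library 1 and fructose library 2, 28 were called. In bulk RNA, fewer responding cells and less RNA per cell cannot be told apart. Summed over the list, the level was 5734, 5979 and 5112 CPM in glucose and 3325, 3432 and 3123 CPM in fructose. Cells in control medium held 6066, 6249 and 5697 CPM with LPS and 417, 417 and 406 CPM without it. The fructose libraries thus stood below all libraries of both other LPS groups and far above the cells without LPS.

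Rsad2 (ENSMUSG00000020641) encodes viperin, an antiviral enzyme that makes a chain-terminating nucleotide. It stood at 1236, 1314 and 1062 CPM in glucose and 576, 589 and 509 in fructose, a log2 difference of -1.11 ± 0.08 (SE, adjusted p = 4.51e-07). Its neighbour Cmpk2, a nucleotide kinase, stood at 656, 643 and 532 CPM against 271, 289 and 265, a difference of -1.15 ± 0.09 (adjusted p = 1.53e-06). Neither gene had overlapping groups. Isg15, a ubiquitin-like protein that is attached to other proteins, was at 139, 127 and 115 CPM in glucose and 73.0, 60.0 and 66.5 in fructose (-0.94 ± 0.08, adjusted p = 2.13e-06).

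The Ifit proteins bind foreign RNA and block its translation. All 6 tested Ifit genes were called lower, by 1.10 to 1.31 on the log2 scale, against 1.88% of all tested genes. This family was singled out after its values were seen. Ifit3 (ENSMUSG00000074896) was at 125, 125 and 105 CPM in glucose and 51.1, 49.2 and 45.3 in fructose (-1.29 ± 0.08, adjusted p = 6.87e-08), the smallest p of all genes. Ifit2 was at 262, 313 and 250 CPM against 112, 132 and 106 (-1.24 ± 0.08, adjusted p = 1.38e-07). For both genes the lowest glucose library lay far above the highest fructose library. Ifit3b (-1.12 ± 0.10), Ifit1 (-1.10 ± 0.10), Ifit1bl1 (-1.24 ± 0.20) and Ifit1bl2 (-1.31 ± 0.21) gave like differences. Ifit1bl1 was not called by limma on log2(FPKM + 0.1).

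The Mx genes encode dynamin-like GTPases that trap viral particles. Mx1 was at 8.50, 9.76 and 9.82 CPM in glucose and 2.59, 2.98 and 4.47 in fructose (-1.49 ± 0.20, adjusted p = 0.00022), and Mx2 differed by -1.09 ± 0.14. Ifi44 was at 2.63, 3.62 and 3.19 CPM against 1.11, 1.05 and 1.05 (-1.55 ± 0.27, adjusted p = 0.00227). The largest difference of the list was that of Iigp1, a GTPase that attacks the vacuoles of parasites, with 1.35, 1.47 and 1.27 CPM against 0.308, 0.186 and 0.395 (-2.18 ± 0.53), at levels of few reads. The related immunity GTPases Irgm1, Irgm2, Igtp and Ifi47 were called lower as well. So were Gbp2, Gbp3 and Gbp7 among 5 tested guanylate-binding proteins, against 1.88% of all tested genes. Gbp5 had the same difference as Gbp3, -1.01, with a larger error (± 0.28, adjusted p = 0.0585). Slfn8, a Schlafen gene, was at 11.9, 14.1 and 11.6 CPM against 5.12, 7.07 and 4.27 (-1.18 ± 0.17). Of 6 tested Schlafen genes, 5 were called lower, against 1.88% of all tested genes. The GTPase and Schlafen families were singled out after their values were seen. Apol9b (-1.27 ± 0.18) shares 97.1% of its transcript with Apol9a, so its own level is uncertain.

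The sensors and factors of the pathway differed less than its most induced products. Ddx58, which encodes the RNA sensor RIG-I, was at 146, 160 and 145 CPM in glucose and 89.2, 91.2 and 78.9 in fructose (-0.80 ± 0.07, adjusted p = 1.88e-06). Ifih1, the sensor MDA5, differed by -0.59 ± 0.08. Irf7, the factor that amplifies interferon genes, was at 129, 133 and 117 CPM against 79.9, 70.5 and 70.6 (-0.78 ± 0.07, adjusted p = 2.51e-06). Stat2 stood at 76.6, 87.1 and 76.8 CPM against 57.3, 55.6 and 50.05 (-0.56 ± 0.09). Its partner Irf9 was not called (-0.21 ± 0.06, adjusted p = 0.076), nor was the RNA-degradation activator Oas3 (-0.19 ± 0.07). Oasl1, a relative that dampens Irf7 translation, was called at a small difference of -0.23 ± 0.06, with 612, 598 and 571 CPM against 518, 524 and 478. The DNA sensor gene Mb21d1, which encodes cGAS, was lower by 0.30 ± 0.06 (adjusted p = 0.00672 for a log2 difference of -0.30).

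**Figure D2:**
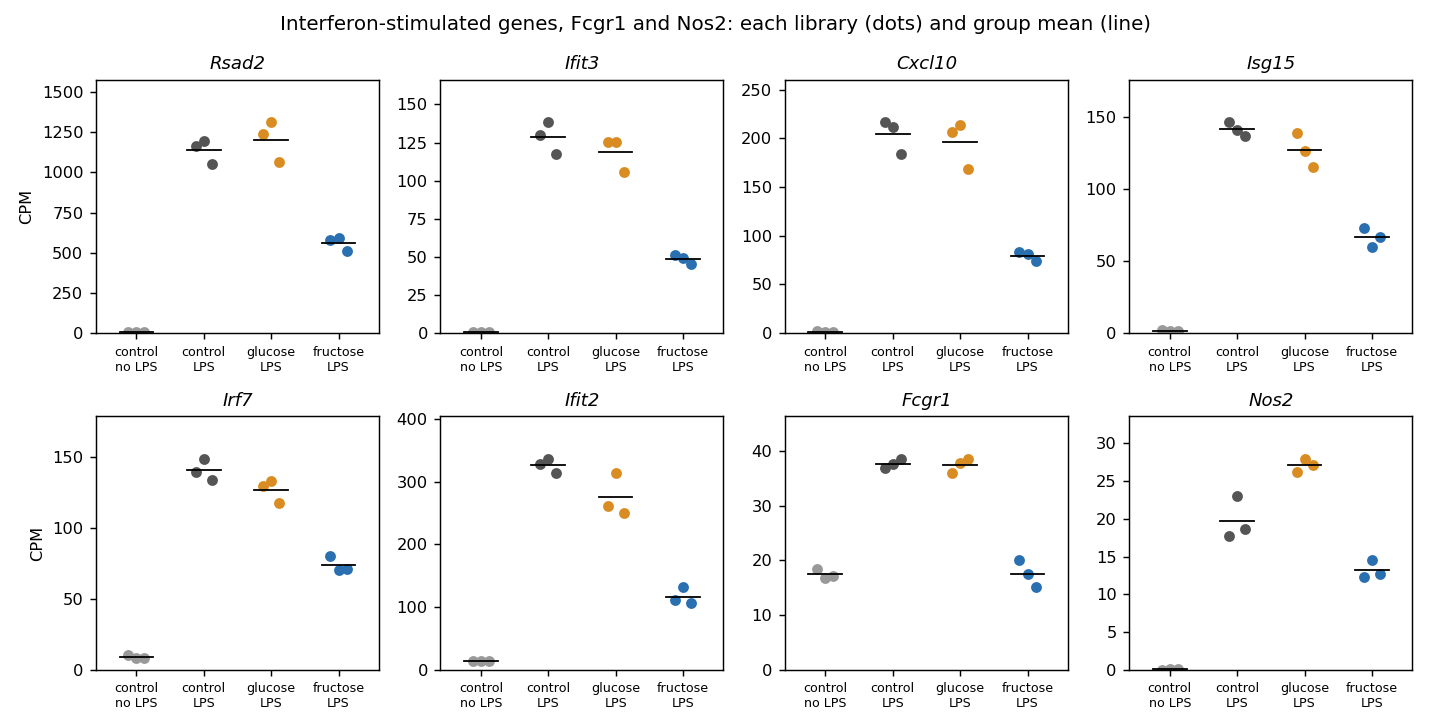
Level in CPM (y axis, from 0) of 8 genes in each of the 12 libraries (dots) with the group mean (line), by medium and LPS (x axis). In each panel the 3 fructose libraries lie below the 3 glucose libraries, and for Fcgr1 they lie at the level of cells without LPS.

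The genes upstream of these products gave small differences. Transcripts of the interferon ligands were nearly undetected: Ifnb1 had 3, 2 and 1 counts in glucose, 0, 0 and 0 in fructose, and 1, 1 and 0 in control medium with LPS, too few to test, and Ifna2 and Ifna4 had 0 in all libraries. The receptor genes were not called, with differences of 0.11 for Ifnar1 (95% interval -0.04 to 0.25) and 0.04 for Ifnar2 (-0.12 to 0.19). The kinase gene Jak1 differed by 0.04 (-0.06 to 0.13), while Tyk2 was higher in fructose by 0.30 ± 0.06 (adjusted p = 0.0111). On the route from Toll-like receptor 4 to interferon, Ticam1, which encodes TRIF, differed by 0.25 (0.08 to 0.42), Tbk1 by 0.17 (0.02 to 0.33) and Irf3 by 0.09 (-0.12 to 0.29), none of them called. Mavs, the adaptor of the RNA sensors RIG-I and MDA5, differed by 0.04 (-0.10 to 0.18) and was not called. These intervals exclude a fall of the size seen for Irf7.

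Control medium with LPS shows where the levels lay without raised sugar. Its libraries enter both differences that follow and each sugar's libraries enter the direct comparison too, so the values are set side by side without a test of likeness. The median of the 39 interferon-stimulated genes was -0.15 for glucose minus control and -0.93 for fructose minus control. For Rsad2 these were 0.08 ± 0.08 and -1.03 ± 0.08, for Ifit3 -0.12 ± 0.07 and -1.40 ± 0.08, for Isg15 -0.15 ± 0.08 and -1.09 ± 0.08, and for Irf7 -0.15 ± 0.07 and -0.93 ± 0.07. Over all genes, 199 were called for glucose minus control and 627 for fructose minus control.

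Within the interferon list, the genes that LPS had raised most in control medium tended to show the larger differences between the sugars. The LPS change and the sugar difference come from different libraries. Pearson's r was -0.61 and Spearman's rho -0.77 across 39 genes, which are not independent replicates and were measured in the same 12 libraries. Mx1, Ifit3 and Rsad2, raised by 6.18, 7.20 and 7.39, lay at the steep end. Irf9, raised by 2.07, differed less. Oasl1 lay off this order, raised by 4.44 with a difference of -0.23.

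**Figure D3:**
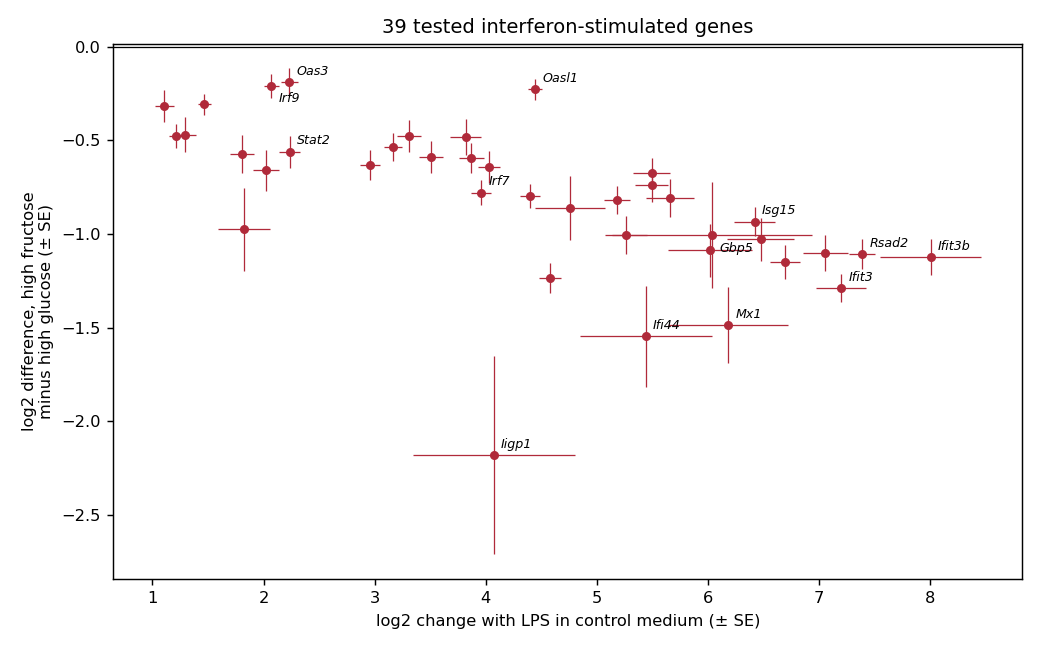
Log2 difference between fructose and glucose (y axis) against the log2 change with LPS in control medium (x axis) for 39 interferon-stimulated genes, with SE bars. Genes raised most by LPS lie lower, with Oasl1 near 0 and Iigp1 at -2.18.

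The lower genes were also many among LPS-raised genes outside the interferon list, a grouping made after values were seen. Of 503 genes that LPS raised at least 2-fold in control medium, 122 were called lower in fructose than in glucose and 27 higher. With the interferon list left out, 86 of 464 were called lower (18.5%) and 27 higher (5.82%), against 1.88% and 1.84% of all tested genes. The interferon list holds 40 genes and is not complete, so other interferon-stimulated genes can be among the 464, and their number was not tested. Of 109 genes that LPS lowered at least 2-fold, 1 was called lower and 1 higher. The LPS-raised genes made up 50.8% of all genes called lower.

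Among the effectors of activated macrophages, Nos2 and Fcgr1 differed most. Nos2 (ENSMUSG00000020826), the inducible nitric oxide synthase, was at 26.2, 28.0 and 27.2 CPM in glucose and 12.3, 14.6 and 12.7 in fructose (-1.04 ± 0.12, adjusted p = 4.56e-05). Control medium with LPS lay between them at 17.7, 22.98 and 18.6 CPM, with differences of 0.46 ± 0.12 for glucose (adjusted p = 0.0606) and -0.58 ± 0.12 for fructose (adjusted p = 0.00669). Fcgr1, the high-affinity IgG receptor, was at 36.1, 37.7 and 38.6 CPM in glucose and 20.05, 17.5 and 15.1 in fructose (-1.09 ± 0.09, adjusted p = 1.88e-06). LPS raised Fcgr1 from a mean of 17.5 CPM to 36.9, 37.6 and 38.6 CPM in control medium, so the fructose libraries stood near the mean without LPS. The NADPH oxidase genes moved both ways: Cybb, its catalytic subunit, was lower (-0.31 ± 0.05), and the cytosolic subunit gene Ncf1 (0.18 ± 0.05) was higher. Ncf1 was called in 1 of the 6 fits without 1 library, the one without glucose library 1 (adjusted p up to 0.149 in the others). Of 19 tested effector genes, 3 were called higher and 2 lower, against 1.84% and 1.88% of all tested genes.

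Of 22 tested cytokines and chemokines, 4 were called lower in fructose (Cxcl10, Ccl7, Ccl2 and Ccl9) and 1 higher (Csf1), where 1.88% and 1.84% of all tested genes were called. Cxcl10 (ENSMUSG00000034855), an interferon-induced chemokine that draws T cells, was at 206, 214 and 169 CPM in glucose and 83.5, 81.5 and 73.7 in fructose (-1.30 ± 0.08, adjusted p = 1.38e-07). Ccl7 was at 311, 319 and 274 CPM against 189, 202 and 185 (-0.65 ± 0.06, adjusted p = 5.25e-06). Ccl2, which draws monocytes through Ccr2 as Ccl7 does, was at 665, 622 and 596 CPM against 465, 400 and 430 (-0.54 ± 0.06, adjusted p = 1.85e-05). In none of these 3 did the groups overlap. Ccl9 differed by -0.34 ± 0.08 and lost its call without glucose library 1 or 2 or fructose library 2 or 3 (adjusted p up to 0.0838). Csf1, the growth factor of macrophages, was higher by 0.17 ± 0.04 (adjusted p = 0.0109).

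Among the cytokines and chemokines that were not called, Tnf was at 172, 182 and 166 CPM in glucose and 177, 185 and 199 in fructose, a difference of 0.11 (95% interval -0.01 to 0.23, adjusted p = 0.394). Il1b was at 7.71, 10.005 and 6.12 CPM against 13.9, 9.67 and 10.6 (0.52, interval 0.07 to 0.97, adjusted p = 0.231), with overlapping groups. Cxcl2 differed by 0.11 (-0.06 to 0.28) and Il1a by 0.02 (-0.35 to 0.39), while Ccl5, which responds to both routes, differed by -0.37 (-0.68 to -0.06, adjusted p = 0.203). Il6 had only 4 to 25 counts in the 6 libraries, so no difference was detectable at this depth. Acod1, which makes itaconate, differed by 0.14 (0.06 to 0.23, adjusted p = 0.0635), and the superoxide dismutase gene Sod2 by -0.13 (-0.22 to -0.05, adjusted p = 0.0942). The interval for Tnf begins at -0.01 and so lies apart from the interval of Irf7, -0.92 to -0.64.

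The genes of the receptor pathway itself were close in both sugars. Of 22 tested genes of the Toll-like receptor 4 pathway, 22 had a 95% interval within ± 0.5, as did 69.8% of all tested genes. Tlr4 differed by 0.20 (0.07 to 0.33, adjusted p = 0.0906) and Myd88 by -0.09 (-0.20 to 0.03). Only Tlr2, the receptor for bacterial lipoproteins, was called, at 348, 358 and 355 CPM in glucose and 414, 412 and 394 in fructose (0.20 ± 0.04, adjusted p = 0.0114), and not without fructose library 1 (adjusted p = 0.0536). Of 24 tested feedback regulators, 3 were called lower and 1 higher, against 1.88% and 1.84% of all tested genes. The secreted interleukin-1 antagonist Il1rn (-0.33 ± 0.04), the phosphatase gene Dusp2 (-0.47 ± 0.13) and the mRNA-decay gene Zfp36 (-0.22 ± 0.05) were lower. Tnfaip2 was higher (0.25 ± 0.05). Dusp2 lost its call without glucose library 1 or 3 or fructose library 1 or 3 (adjusted p up to 0.148), and Zfp36 without glucose library 1 or 3 or fructose library 1 or 2 (up to 0.0966). Il1rn was at 1693, 1759.9 and 1636 CPM in glucose, 1397, 1302 and 1336 in fructose, and 1319.6, 1273 and 1239 in control medium with LPS, so the glucose libraries stood highest. Of the inflammasome genes, Nlrp3 was called higher (0.24 ± 0.07, adjusted p = 0.0484) and lost its call in 11 of 18 alternatives, among them those without any library but fructose library 1 (adjusted p up to 0.189).

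Of 17 tested genes of antigen processing, 5 were called lower in fructose and 0 higher, where 1.88% of all tested genes were called lower, and the median was -0.20. Tap1, which carries peptides into the endoplasmic reticulum, was at 65.5, 58.4 and 57.8 CPM in glucose and 42.4, 48.0 and 39.9 in fructose (-0.48 ± 0.09, adjusted p = 0.00438). The immunoproteasome genes Psmb9 (-0.64 ± 0.14) and Psmb10 (-0.28 ± 0.05), the loading factor Tapbp (-0.22 ± 0.05) and the checkpoint ligand Cd274 (-0.32 ± 0.06) were lower too. Psmb9 lost its call without glucose library 1 or fructose library 2 (adjusted p up to 0.0645), and 3 of the 5 were called without both. Exons of Tapbp and Cd274 overlap genes on the other strand over 24.9% and 14.1% of their bases, and no source used here says whether the counting used strand. Clu, which encodes the secreted chaperone clusterin, was at 150, 157 and 145 CPM against 112, 102 and 91.4 (-0.56 ± 0.07, adjusted p = 6.66e-05), and Psen2, a gamma-secretase subunit, differed by -0.23 ± 0.06 and lost its call without glucose library 1 or 3 or fructose library 2 or 3 (up to 0.103).

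The sugar-sensing factors MondoA and ChREBP respond to phosphorylated hexoses, and Txnip and Arrdc4, arrestin-like proteins that limit glucose uptake, are their best known targets. Both were lower in fructose than in glucose. Txnip (ENSMUSG00000038393) was at 96.3, 92.6 and 88.5 CPM in glucose and 65.4, 65.3 and 65.3 in fructose (-0.50 ± 0.05, adjusted p = 2.94e-05). Arrdc4 was at 54.5, 45.5 and 52.3 CPM against 37.2, 38.0 and 33.3 (-0.49 ± 0.08, adjusted p = 0.00114). Control medium with LPS gave 66.6, 60.8 and 63.6 CPM for Txnip and 33.6, 33.6 and 31.9 for Arrdc4. Against it, glucose differed by 0.54 ± 0.05 for Txnip and 0.62 ± 0.08 for Arrdc4, and fructose by 0.04 (adjusted p = 0.83) and 0.13 (adjusted p = 0.49). Txnip overlaps Gm15441 on the other strand over 19.4% of its exonic bases.

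The carbohydrate response element, searched on both strands as a pair of CACGNG sites with 5 bases between them, occurred in 16 of 32851 promoter windows (0.0487%). Among these was that of Txnip, at chr3:96557707-96557956 on the plus strand of GRCm38.p6 for the 250 bases before the start site. It is printed because Txnip carries the contrast between the sugars, with the match in capitals, which begins 85 bases before the start site.
Txnip: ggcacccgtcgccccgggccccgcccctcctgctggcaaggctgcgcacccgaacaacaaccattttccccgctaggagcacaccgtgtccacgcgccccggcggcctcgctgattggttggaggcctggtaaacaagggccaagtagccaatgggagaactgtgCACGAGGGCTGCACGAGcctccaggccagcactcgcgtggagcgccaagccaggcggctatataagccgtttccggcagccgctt
The window of Arrdc4 holds no match.

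Other genes of sugar handling gave no such contrast. Of 8 tested MondoA and ChREBP targets, the called ones were Txnip, Arrdc4 and Bhlhe40, a clock repressor that was higher in fructose at 160, 172 and 160 CPM against 126, 126 and 131 (0.36 ± 0.05, adjusted p = 0.000177). Ogt, which attaches GlcNAc to proteins, was at 57.7, 72.7 and 69.5 CPM in glucose and 45.4, 57.4 and 59.3 in fructose (-0.30, interval -0.52 to -0.08, adjusted p = 0.131), with overlapping groups. The glucose transporter Slc2a1 differed by -0.01 (-0.10 to 0.08), hexokinase 2 (Hk2) by 0.01 (-0.16 to 0.17), ketohexokinase (Khk) by -0.03 (-0.25 to 0.19) and lactate dehydrogenase (Ldha) by -0.03 (-0.12 to 0.06). These intervals leave room for differences of at most 0.25 in either direction. The fructose transporter Slc2a5 had 0 or 1 count in each of the 6 libraries, and its difference was not detectable. Of 15 tested genes of fructose breakdown and the polyol pathway, Akr1b8 was called (0.16 ± 0.04, adjusted p = 0.0419) and lost its call in 9 of 18 alternatives, among them those without glucose library 1 or 3 or fructose library 1 or 3 (up to 0.175).

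Transcript levels of central metabolism genes were close in both media, and metabolism itself was not measured. No gene of 30 in the tricarboxylic acid cycle, 31 of nuclear-encoded oxidative phosphorylation, 10 of the pentose phosphate pathway, 24 of cholesterol synthesis and uptake or 22 of fatty acid synthesis was called by edgeR. The intervals lay within ± 0.5 for 30, 30, 10, 23 and 19 of them in that order, against 69.8% of all tested genes. For oxidative phosphorylation, 25 of the 31 differences lay below 0, with a median of -0.06. Hmgcs1 differed by 0.01 (-0.09 to 0.12). Of 19 tested glycolysis genes only Gapdh was called, at 10.7, 13.9 and 13.5 CPM in glucose and 236, 181 and 298 in fructose, a difference of 4.23 ± 0.67 (adjusted p = 0.000922). The same gene was at 125, 11.04 and 212 CPM in the 3 libraries of control medium with LPS. Its coding transcript matches pseudogenes over 94.2% of its length, so this value is uncertain and cannot be read as a level of Gapdh transcript. All 19 cytosolic heat shock chaperones had intervals within ± 0.5, with 0 called.

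**Figure D4:**
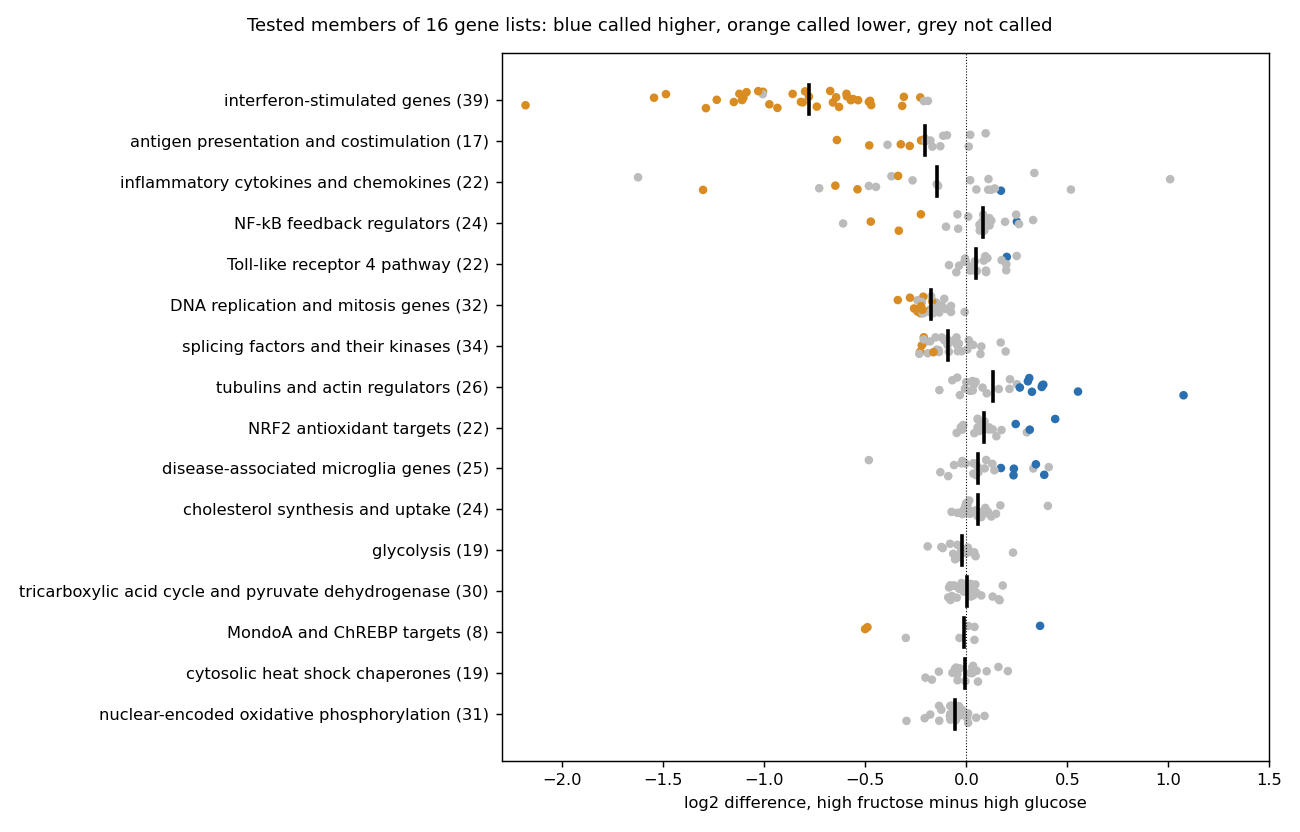
Log2 difference between fructose and glucose (x axis) of the tested members of 16 gene lists (rows, with the number tested), with medians as bars and the median of all genes dotted. The interferon list has its median at -0.78, and 1 member, Gapdh, lies outside the range drawn.

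Genes of the cytoskeleton were among those higher in fructose. Of 26 tested tubulins and actin regulators, 9 were called higher and 0 lower, where 1.84% of all tested genes were called higher, and the median was 0.13. Libraries did not overlap for 10 of the 26 with fructose above, against 9.29% of all tested genes. Tubb3 (ENSMUSG00000062380), a tubulin best known from neurons, was at 15.8, 13.01 and 14.8 CPM in glucose and 32.1, 31.4 and 28.2 in fructose (1.07 ± 0.12, adjusted p = 2.51e-05). The intermediate filament gene Vim (0.26 ± 0.03), the nuclear lamin gene Lmna (0.30 ± 0.04), the focal adhesion gene Vcl (0.37 ± 0.07) and the membrane protein gene Emp1 (0.38 ± 0.04) were higher as well. Vcl overlaps Ap3m1 on the other strand over 25.5% of its exonic bases. Emp1 was at 611, 640 and 622 CPM in glucose and 829, 817 and 793 in fructose, and at 466, 464 and 462 in control medium with LPS, so both sugars stood above control. Fibroblast markers were high in fructose libraries 1 and 2 and low in library 3, while Tubb3 and Emp1 were high in all 3, and their part in the result was not tested.

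Annexins bind membrane phospholipids when calcium rises and take part in membrane repair. Of 10 tested, 6 were called higher, against 1.84% of all tested genes, a family singled out after its values were seen. Anxa1 (ENSMUSG00000024659), an anti-inflammatory member, was at 539, 575 and 505 CPM in glucose and 824, 770 and 782 in fructose (0.55 ± 0.05, adjusted p = 4.12e-06). Anxa2 was at 1009, 970.2 and 938 CPM against 1314, 1197 and 1274.5 (0.38 ± 0.04, adjusted p = 4.35e-05). Anxa8 was at 2.57, 2.46 and 3.51 CPM against 6.60, 6.51 and 5.13 (1.10 ± 0.23, adjusted p = 0.0101), at low counts, and was not called without glucose library 1 and fructose library 2 together. Anxa6 (0.39), Anxa11 (0.29) and Anxa7 (0.19) were called too, whereas Anxa5 differed by 0.09 (-0.01 to 0.19) and Anxa3 by -0.01 (-0.13 to 0.11). The calcium-dependent protease Capn2, which cuts cytoskeletal anchors, was at 109, 118 and 103 CPM in glucose and 170, 177 and 174 in fructose (0.66 ± 0.06, adjusted p = 2.51e-06), and its inhibitor Cast was higher by 0.50 ± 0.05. Capn2 overlaps Gm37885 on the other strand over 27.1% of its exonic bases. Cav2, a caveolin, was higher by 0.53 ± 0.07, and the calcium pump gene Atp2b4 by 1.05 ± 0.15, at 5.57, 8.29 and 6.82 CPM against 15.5, 13.5 and 13.7.

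Mmp19 (ENSMUSG00000025355), a secreted matrix protease, was at 93.2, 93.4 and 103 CPM in glucose and 160, 170 and 175 in fructose (0.80 ± 0.07, adjusted p = 3.56e-06). Control medium with LPS gave 73.9, 62.5 and 58.0 CPM, and the differences from it were 0.58 ± 0.07 for glucose and 1.38 ± 0.07 for fructose. Mmp19 overlaps genes on the other strand over 28.3% of its exonic bases. Aqp1, a water channel, was at 2.08, 2.82 and 1.66 CPM against 5.61, 4.40 and 6.58 (1.33 ± 0.26, adjusted p = 0.0054). Of 17 tested osmotic response genes, Aqp1 and the betaine transporter gene Slc6a12 (0.19 ± 0.05) were the 2 called higher, against 1.84% of all tested genes. Slc6a12 was not called without glucose library 2 or 3 or fructose library 1 or 3 (adjusted p up to 0.0974). Timp2, an inhibitor of matrix proteases, was higher by 0.34 ± 0.07. The matrix list had a median of 0.32, with 2 of 19 called higher, against 1.84% of all tested genes. Its collagens include the fibroblast markers that were uneven among libraries, such as Col1a1 at 1 to 114 counts. The remaining genes of the largest rises were Rfx2 (0.68 ± 0.14), Tppp3 (0.89 ± 0.21), Tns1 (0.68 ± 0.17), Il20rb (0.63 ± 0.17) and Lipn (0.62 ± 0.13). All but Rfx2 lost their call without glucose library 3. Tppp3 also lost it without glucose library 2 or fructose library 2 or 3 (adjusted p up to 0.12), Tns1 without any library but fructose library 1 (up to 0.176), Il20rb without glucose library 1 or 2 or fructose library 2 (up to 0.226), and Lipn without fructose library 1 (up to 0.0612). Rfx2 lost it without glucose library 1 and fructose library 2 together.

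**Figure D5:**
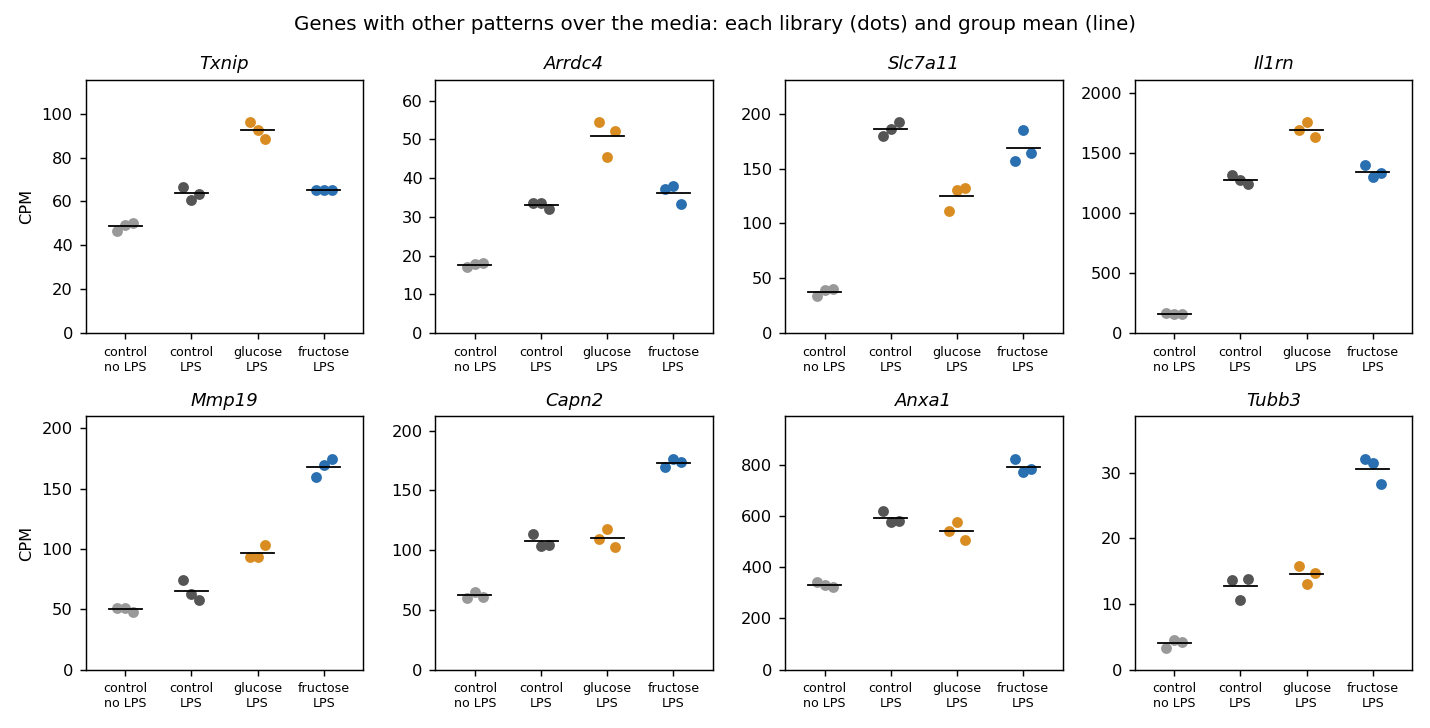
Level in CPM (y axis, from 0) of 8 genes in each of the 12 libraries (dots) with the group mean (line), by medium and LPS (x axis). Txnip, Arrdc4 and Il1rn are highest in glucose, Slc7a11 is lowest there among the LPS groups, and Mmp19, Capn2, Anxa1 and Tubb3 are highest in fructose.

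Some genes that were higher in fructose than in glucose lay near the level of control medium with LPS. Slc7a11, the cystine importer that supplies glutathione synthesis, was at 111, 130 and 132 CPM in glucose, 157, 185 and 165 in fructose and 180, 187 and 193 in control medium with LPS (0.44 ± 0.08 between the sugars, adjusted p = 0.00224). Glucose differed from control by -0.58 ± 0.08 and fructose by -0.14 (adjusted p = 0.398). The integrin gene Itgb2 was at 278, 282 and 284 CPM in glucose, 342, 349 and 338 in fructose and 338, 335 and 327 in control (0.29 ± 0.04, adjusted p = 0.000373). Lysozyme (Lyz2, 0.23 ± 0.05), the endothelial marker Vwf (0.42 ± 0.07) and Bcl2l11, a trigger of apoptosis (0.21 ± 0.05), were also higher in fructose than in glucose. Fructose minus control was 0.03, -0.09 and -0.01 for them in that order. Without 1 library, Bcl2l11 was called in 0 of 6 fits (adjusted p up to 0.125) and Lyz2 in 4 of 6, the exceptions being glucose library 3 and fructose library 1 (up to 0.0579).

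Of 22 tested NRF2 targets, which act against oxidants, Slc7a11, Srxn1 (0.24 ± 0.05) and Sqstm1 were called higher and 0 lower, where 1.84% of all tested genes were called higher. Sqstm1, the autophagy receptor p62, was at 944, 927 and 953 CPM in glucose and 1176, 1181 and 1153 in fructose (0.31 ± 0.04, adjusted p = 5.2e-05), and its exons overlap Mrnip on the other strand over 17.3%. Hmox1, another target, differed by 0.09 (0.01 to 0.17, adjusted p = 0.261). Of 25 tested genes of disease-associated microglia, Ank (0.39 ± 0.04), Timp2, Cd9 (0.24 ± 0.04), Lyz2 and Csf1 were called higher, against 1.84% of all tested genes. With the 6 libraries alone, 2 of these were called. Ank, a pyrophosphate exporter, was at 352, 353 and 367 CPM against 463, 476 and 461. Trem2, the lipid receptor of such cells, differed by 0.10 (-0.03 to 0.22), App by 0.11 (0.02 to 0.21, adjusted p = 0.185) and Apoe by 0.41 (-0.46 to 1.27), where fructose library 1 alone held 28.3 CPM against 7.44 and 7.50 in the others. Of 32 tested phagocytic and lysosomal genes, 2 were called higher and 1 lower, against 1.84% and 1.88% of all tested genes, with a median of 0.05. The lysosomal protease Ctsk (0.18 ± 0.04), the adhesion ligand Selplg (0.36 ± 0.06), the hypoxia and stress gene Ndrg1 (0.42 ± 0.07), the clock factor Arntl (0.38 ± 0.08) and the endoplasmic reticulum genes Herpud1 (0.34 ± 0.08) and Xbp1 (0.21 ± 0.05) were called higher. Of these, Selplg and Ndrg1 were called in all 6 fits without 1 library. Herpud1 was not called without glucose library 2 or 3 or fructose library 1 (adjusted p up to 0.159), Xbp1 without these or fructose library 2 (up to 0.141), Ctsk without glucose library 2 or 3 or fructose library 1 or 3 (up to 0.0945), and Arntl without glucose library 1 or 3 or fructose library 2 (up to 0.0567). Atf4, the amino acid stress factor, differed by -0.06 (-0.17 to 0.04).

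Of 32 tested genes of DNA replication and mitosis, 10 were called lower in fructose and 0 higher, where 1.88% of all tested genes were called lower. The median was -0.17, and all 32 differences lay below 0 with intervals within ± 0.5. Mcm3, a subunit of the replicative helicase, was at 215, 230 and 221 CPM in glucose and 186, 196 and 186 in fructose (-0.23 ± 0.05, adjusted p = 0.0072). Rrm2, which supplies deoxynucleotides, differed by -0.26 ± 0.05, the mitotic kinase gene Aurkb by -0.28 ± 0.05 and the proliferation factor Mybl2 by -0.22 ± 0.04. Cdkn1a, which encodes the cell cycle inhibitor p21, was lower too, at 182, 165 and 177 CPM in glucose and 142, 130 and 142 in fructose (-0.34 ± 0.05, adjusted p = 0.00107), so the called genes hold both drivers of division and an inhibitor. The count was 5 without fructose library 3, 6 without glucose library 1 and fructose library 2, and 3 with the 6 libraries alone. The chromatin protein gene Hmgb2 differed by -0.32 ± 0.05 and the early gene Ier5 by -0.25 ± 0.05, which lost its call without glucose library 1 or fructose library 2 (adjusted p up to 0.0607).

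Of 34 tested splicing factors, 4 were called lower and 0 higher, where 1.88% of all tested genes were called lower. Hnrnpd (-0.22 ± 0.05), Hnrnpu (-0.16 ± 0.04), Srsf10 (-0.21 ± 0.06) and Hnrnpa1 (-0.23 ± 0.05) were those called. The count was 0 without fructose library 2 or with the 6 libraries alone, 2 without glucose library 2 or fructose library 1, and 1 without glucose library 3, with adjusted p of these genes up to 0.198. Hnrnpa1 shares 50.3% of its coding transcript with pseudogenes and is uncertain. Of 814 tested genes that the table marks with a transcription factor family, 7 were higher and 11 lower, against 1.84% and 1.88% of all tested genes. Of 567 tested long non-coding RNA genes, 4 were called lower and 0 higher, a share below that of all tested genes, namely Gm4419 (-1.90 ± 0.45), A930007I19Rik (-0.95 ± 0.20), Gm20559 (-0.51 ± 0.12) and 4930430E12Rik (-0.24 ± 0.06). Gm4419, at 4 to 34 counts, lost its call without glucose library 2 or fructose library 1 or 2 (adjusted p up to 0.0816), Gm20559 without glucose library 2 or 3 or fructose library 1 (up to 0.0863), and 4930430E12Rik without glucose library 2 or any 1 fructose library (up to 0.135).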

How the data were processed

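The 12 libraries were grouped by their labels into 4 groups of 3. The authors deposited raw read counts per gene, made with featureCounts 1.5.0-p3 on mm10 per the submitters' processing notes, and FPKM values, which equal those counts divided by gene length and a constant per library. No source used here gives the aligner, annotation release, strand setting or trimming. Symbols and coordinates come from the table.

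The test was that of edgeR 4.0.16 (R 4.3.3) on the counts: filterByExpr, TMM scaling, 1 quasi-likelihood model over 12 libraries with a coefficient per group, the contrast fructose minus glucose under LPS, and Benjamini-Hochberg adjustment over 12766 genes, called below 0.05. CPM values use TMM-scaled totals. SE and 95% intervals come from the same fit, and 22 genes with a group at 0 have none. Libraries of a group differed by 3.47 to 9.26 times counting error (chi-square per degree of freedom), so none was a duplicate.

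The members, the 45 gene lists and the naming rule were chosen with earlier results of these data known. The rule took the 12 largest called rises and falls at most among protein-coding genes with at least 50 mean counts and no overlap, a fixed set of 24 genes, up to 4 called genes of each list, 8 with the smallest p, 4 long non-coding RNA genes and 6 transcription factors. Other genes named, such as Ifit1, Mx2, Oasl1, Iigp1, Gbp5, Ifnar1, Tyk2, Cast, Cav2 and further annexins, were picked after their values were seen. Shared sequence (at least 50% of a transcript at 98% identity over 75 bases, BLAST 2.17.0+) and antisense exons were read from GENCODE M21. Of 497 genes checked, 478 had the same coordinates there as in the table. Alternatives were other scaling factors and filters, DESeq2 1.42.0, the 6 libraries alone, a replicate block, limma 3.58.1 on log2(FPKM + 0.1) and log2(FPKM + 1), and each library left out. Leaving out glucose library 1 with fructose library 2 was added after seeing the data. Procedures were tested on simulated counts. A few genes are not reported here.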

Additional observations from a re-analysis of the deposited data

How the results depend on the processing

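Of 475 called genes, 221 were also called in each of the 6 fits without 1 library. Those fits called 332 to 385 genes (149 to 181 higher and 177 to 205 lower in fructose) and 32 to 36 interferon-stimulated genes, with 64.9% to 66.7% of tested genes having an interval within ± 0.5. The 6 libraries alone gave 247 calls, 112 higher and 135 lower. Without glucose library 1 and fructose library 2 there were 150 higher among 328 calls, and 28 interferon-stimulated genes were called lower. limma on log2(FPKM + 0.1) without a filter gave 148 higher, and no filter on counts lowered the share of narrow intervals to 37.2%. DESeq2 called 596 genes.

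The replicate number as a block gave 735 calls, 380 higher and 355 lower. Whether the numbers pair the samples cannot be told from 3 libraries a group, and the labels name no shared culture or day. Deviations of same-numbered glucose and fructose libraries correlated at -0.19, -0.07 and -0.08. For glucose and control without LPS they correlated at 0.24, 0.19 and 0.06. In each of the 4 groups, library 1 had the lowest mitochondrial share and the highest ribosomal RNA share of counts. Its mitochondrial share was 0.518% in glucose and 0.564% in fructose.

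Among the 108 named genes recomputed under every alternative, signs turned for 8, none of them called in the comparison. Over the fits without 1 library and the fit without glucose library 1 and fructose library 2, the log2 difference was -0.14 to 0.087 for Hk2, -0.12 to 0.15 for Khk, -0.058 to 0.049 for Ldha, -0.039 to 0.0045 for Slc2a1, -0.53 to 0.55 for Il6, -0.041 to 0.047 for Hmgcs1, -0.55 to 0.95 for Apoe and -0.10 to 0.017 for Atf4. The value for Apoe was negative without fructose library 1. The cause of these changes was not tested.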
